A study of Rattus norvegicus with 20 samples.

Results

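The 9 mitochondrially encoded respiratory chain genes described here are Nd1 (ENSRNOG00000030644), Nd2 (ENSRNOG00000031033), Nd4 (ENSRNOG00000029707), Nd5 (ENSRNOG00000029971), Cytb (ENSRNOG00000031766), Co1 (ENSRNOG00000034234), Co2 (ENSRNOG00000030371), Co3 (ENSRNOG00000030700) and Atp6 (ENSRNOG00000031979). They are 9 of the 24160 features in the count table and were taken by a list of identifiers. RNA was sequenced from the left ventricle (LV) and the brain of 10 male Sprague-Dawley rats, an outbred stock, which gave 20 libraries. The rats weighed between 250 and 300 g. The 5 rats of the stress cardiomyopathy (SCM) group, M1 to M5, underwent immobilization stress, stated as 6 hours and 7 days without saying how the hours were spread, and the 5 control rats, C1 to C5, were labelled as controls. No transgene or drug is named for either group. Age, the part of the brain taken and the handling of the controls are not given in the sources used here, and the study describes the rats as anesthetized when the groups were formed.

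Mitochondria keep a small circular genome of their own, present in many copies per cell. It encodes core subunits of 4 of the complexes that carry out oxidative phosphorylation, and all other subunits are made from nuclear genes and imported. Nd1, Nd2, Nd4 and Nd5 belong to complex I, which takes electrons from NADH and pumps protons. Cytb is the cytochrome b of complex III, Co1, Co2 and Co3 form the catalytic core of complex IV, which passes electrons to oxygen, and Atp6 is part of the proton channel of ATP synthase, complex V. These genes are transcribed together as long precursors, which are cut, mostly at transfer RNAs, into messages that carry a single gene or, for Nd4 and Atp6, a neighbouring gene as well, so their levels depend on shared transcription and on the stability of each message. Heart muscle is among the tissues richest in mitochondria, since contraction draws on oxidative phosphorylation without pause.

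The names come with the list of identifiers and were checked only by abundance, since identifiers were not linked to an annotation here. Co1 had the highest count of all features in every library of both tissues. Nd1, Nd2, Co2, Co3, Atp6 and Cytb ranked between 2 and 8 in the LV, and Nd5 between 8 and 13. Nd4 was the exception, with ranks from 19 to 47 in the LV and from 64 to 332 in the brain. All 9 were among the first 50 features in every LV library and were kept; the list set no rank, and 50 was chosen after the ranks were seen. Nd4 met this limit in the LV alone, so its LV against brain values are given as a description, with no test. A rank by count favours long genes, and gene lengths were not used here, so levels are compared between libraries and not between genes. Nd4 and Atp6 overlap a neighbouring mitochondrial gene, and nuclear copies of mitochondrial sequence exist, so how the counting treated shared reads could change their values. For the same reason the labelled tissues were not checked against marker genes, and mitochondrial genes outside the list were not analysed here. Total counts ranged from 22386526 to 36251990 and the smallest count of any of the 9 genes was 10592, so counting error is small beside the spread between rats.

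These 9 genes took a large part of all LV counts. Their summed share of the library was 26.5% in C1, 25.8% in C2, 25.3% in C3, 31.1% in C4 and 24.9% in C5. In the SCM LV it was 25.2% in M1, 29.2% in M2, 27.5% in M3, 27.7% in M4 and 25.7% in M5. The groups overlapped, with means of 26.7% ± 2.53 (SD, n = 5) in control rats and 27.1% ± 1.62 (SD, n = 5) in SCM rats, and C4 stood above every other rat. In the control brain the share was 6.70%, 7.58%, 7.80%, 8.03% and 6.14% from C1 to C5. In the SCM brain it was 7.35%, 10.05%, 7.39%, 8.19% and 7.21% from M1 to M5. These groups overlapped too, at 7.25% ± 0.800 (SD, n = 5) and 8.04% ± 1.19 (SD, n = 5). The highest brain share, in M2, was in the deepest brain library, of 35988591 counts, and whether depth had a part in it was not tested. The SCM minus control difference was 0.348 percentage points in the LV and 1.45 without C4, and it fell below 0 without C3, C5 or M2. In the brain it was 0.787 points and 0.285 without M2. In bulk tissue, fewer cells of a type and less RNA per cell cannot be told apart. The sum over chosen genes was described and not tested.

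**Figure D1:**
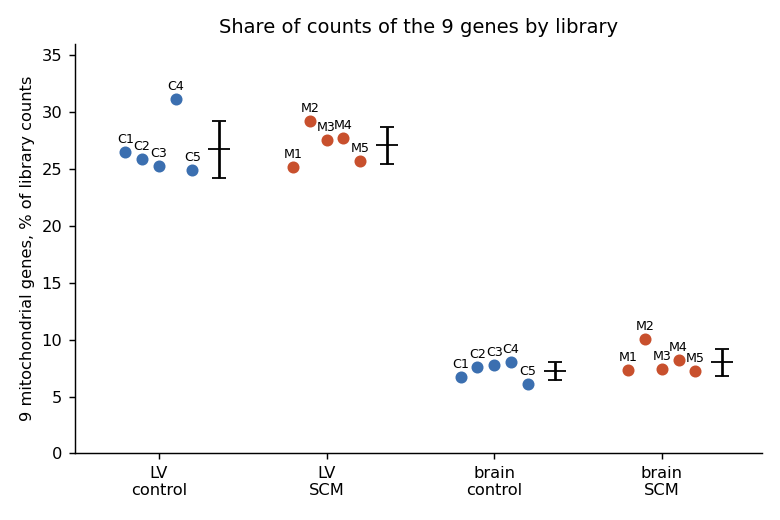
Summed counts of the 9 mitochondrial genes as a percent of all counts in each library, by tissue and group (points, labelled by rat; bars, mean ± SD, n = 5). The LV libraries lie between 24.9% and 31.1% and the brain libraries between 6.14% and 10.05%, and control and SCM rats overlap in both tissues.

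The genes were higher in the LV than in the brain of control rats. With the rat as a block, all 8 genes other than Nd4 had an adjusted p-value under 0.05 in edgeR's quasi-likelihood test, where 37.1% of the 15909 genes tested were higher in the LV by the same limit. These 8 also had a log2 fold change over 2, where 12.5% of all genes passed both limits and were higher in the LV. The study set a limit of 2 for rat genes changed in SCM in both tissues, and not for LV against brain. Nd5 lay at this limit and was under it with RLE normalization, DESeq2, a minimum of 10 counts per library, or without C1, C4 or C5, at values between 1.91 and 1.98 on the log2 scale. The log2 fold changes of the 8 genes ran from 2.02 for Nd5 to 2.97 for Co1, beside a median of -0.12 over all genes tested. Nd5 differed least, 4.04-fold (95% interval 3.31 to 4.95, adjusted p = 1.94e-06, edgeR). Co1 differed most of the 8, 7.84-fold (6.33 to 9.72, adjusted p = 3.32e-07, edgeR), followed by Cytb at 6.30-fold and Co3 at 6.15-fold. Nd2 was 6.05-fold, Co2 5.93-fold, Atp6 5.44-fold and Nd1 4.73-fold higher, and the interval of each gene overlapped that of its neighbour in the order of size. Nd4, kept by its rank in the LV, was 8.71-fold higher (5.87 to 12.9).

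The size of the LV excess depended on what the counts were set against. TMM, a scaling that sets most genes level between libraries, gave factors from 0.713 to 0.787 in the control LV and from 1.28 to 1.36 in the control brain, which raised the LV values against those of the brain. As a plain share of the library, the 9 genes together were 3.71 ± 0.358 times (SD, n = 5) as abundant in the LV as in the brain of the same control rat. The ratio in SCM rats was 3.40 ± 0.307 (SD, n = 5), and the lowest of all 10 rats was 2.91, in M2. Taken alone, Nd5 had the lowest mean ratio in control rats, 2.35 ± 0.337 (SD, n = 5), and Co1 the highest of the 8 other than Nd4, 4.54 ± 0.374 (SD, n = 5). Nd4, kept by its LV rank, was at 5.31 ± 1.79 (SD, n = 5). In SCM rats Nd5 was again lowest, at 2.10 ± 0.225, while Co1 was highest, at 4.16 ± 0.400, and Nd4 was at 3.59 ± 0.996 (SD, n = 5 each). Each of the 9 genes took a larger share of the library in the LV than in the brain in 10 of 10 rats.

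**Figure D2:**
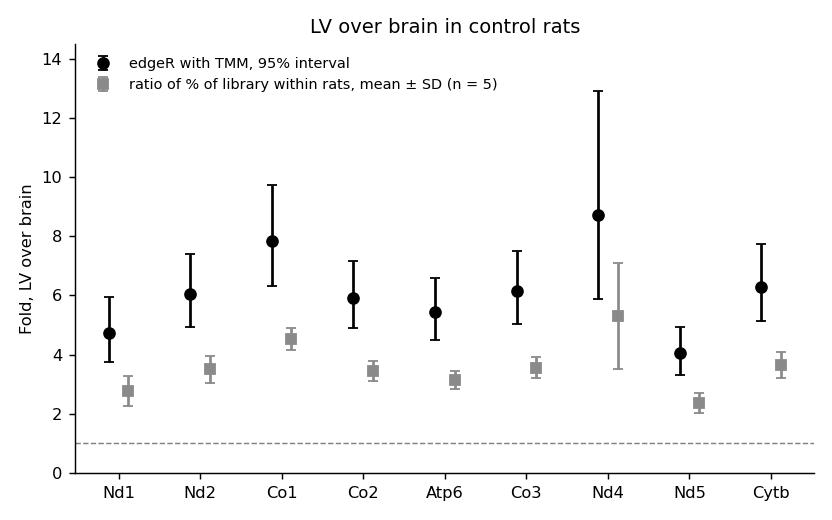
Fold difference of LV over brain in control rats for each gene, from edgeR with TMM (circles, 95% interval) and as the ratio of percents of the library within rats (squares, mean ± SD, n = 5). Every value lies above 1, from 4.04 to 8.71 with TMM and from 2.35 to 5.31 as the plain ratio.

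Immobilization stress changed none of the 9 genes past the threshold in either tissue. In the LV, 0 of 9 had an adjusted p-value under 0.05 (edgeR), where 5.21% of the 13954 genes tested did. DESeq2 and limma-voom also gave 0 of 9, where they called 11.8% and 4.71% of all genes, and 1 of 9 had an unadjusted p-value under 0.05, against 23.2% of all genes. The study's limits, which add an absolute log2 fold change over 2, were passed by 0 of 9 and by 0.229% of all genes. In the brain, 0 of 9 passed in edgeR, where 0.175% of the 16002 genes tested did, and 0 of 9 in DESeq2 and limma-voom, which called 2.52% and 0.181%. In edgeR, 1 of 9 had an unadjusted p-value under 0.05, against 14.3% of all genes. The median log2 fold change of the 9 genes was 0.14 in the LV, beside -0.01 over all genes, and 0.20 in the brain, beside 0.00. Single rats moved these medians: that of the LV was 0.22 without C4 and 0.08 without M2, and that of the brain was 0.13 without C5 and 0.06 without M2. Both medians rest on TMM scaling. As a plain share of the library, the LV sum averaged 26.7% in control rats and 27.1% in SCM rats. On that scale the LV means of Co2, Co3 and Nd5 (1.02% and 0.935%) were lower in SCM rats, and those of the other genes were higher. In the LV, leaving out 1 rat changed 1 call, that of Nd2, which is given with its values. The stress and tissue comparisons share the control libraries, and same-named LV and brain libraries come from 1 rat.

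**Figure D3:**
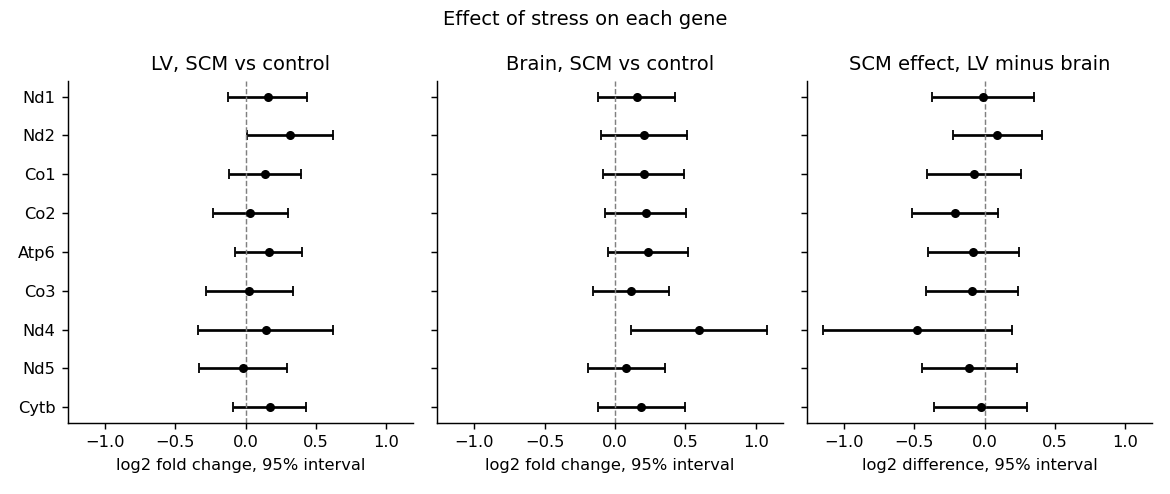
Log2 fold change of SCM over control in the LV and the brain, and the difference of the 2 effects, for each gene (points, edgeR; bars, 95% intervals). The points run from -0.02 to 0.31 in the LV and from 0.08 to 0.60 in the brain; Nd2 in the LV and Nd4 in the brain have intervals that leave out 0, and neither passed after adjustment over all genes.

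Among the complex I genes, Nd2 had the largest estimate in the LV. This subunit sits in the membrane arm of the complex. It took 2.05, 1.79, 1.80, 2.58 and 1.86% of the library in the LV of C1 to C5 and 2.05, 2.34, 2.36, 2.75 and 2.12% in M1 to M5. The groups overlapped through C4, which lay above 4 of the 5 SCM rats. The estimate was 1.24-fold (95% interval 1.00 to 1.53), with an unadjusted p of 0.0458 and an adjusted p of 0.205 (edgeR). Without C4 the log2 fold change was 0.45 and the adjusted p 0.0455 (edgeR), and over all alternatives the adjusted p ranged from 0.0455 to 0.369. In the brain Nd2 took 0.523, 0.580, 0.596, 0.729 and 0.466% in control rats and 0.575, 0.730, 0.598, 0.787 and 0.570% in SCM rats, an overlap in which C4 and M4 were highest in their groups. That difference was 1.15-fold (0.931 to 1.43, adjusted p = 0.522, edgeR).

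The feature listed as Nd4 had the largest estimate in the brain. By its name it is another membrane arm subunit, but it met the abundance limit in the LV alone. It took 0.0461, 0.0370, 0.0698, 0.0453 and 0.0442% of the library in the brain of C1 to C5 and 0.0566, 0.106, 0.0576, 0.0528 and 0.0816% in M1 to M5. Of the control rats only C3 reached into the SCM range. The estimate was 1.51-fold (1.08 to 2.12), with an unadjusted p of 0.0202 and an adjusted p of 0.265 (edgeR), and over all alternatives the adjusted p ranged from 0.163 to 0.449. The log2 fold change was 0.60 with all rats, 0.37 without M2 and 0.77 without C3. In the LV Nd4 took 0.265, 0.216, 0.165, 0.243 and 0.320% in control rats and 0.215, 0.367, 0.216, 0.257 and 0.171% in SCM rats. These ranges lay almost on top of each other, and the difference was 1.10-fold (0.793 to 1.54, adjusted p = 0.739, edgeR).

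Nd1, which lies where the membrane arm meets the arm that receives electrons, and Nd5, at the far end of the membrane arm, also overlapped between the groups. Nd1 took 1.56, 1.24, 1.349, 1.85 and 1.52% in the control LV and 1.499, 1.57, 1.49, 1.69 and 1.51% in the SCM LV, where the SCM rats lay within the control range. Its difference was 1.11-fold in the LV (0.919 to 1.35, adjusted p = 0.497, edgeR) and 1.11-fold in the brain (0.921 to 1.34, adjusted p = 0.592, edgeR). Nd5 took 1.01, 0.872, 0.896, 1.346 and 0.972% in the control LV and 0.983, 0.856, 0.891, 1.06 and 0.881% in the SCM LV. It was the only 1 of the 9 with an estimate below 1 in the LV, 0.987-fold (0.795 to 1.22, adjusted p = 0.956, edgeR), and its sign changed with limma-voom. In the brain the means were 0.550% ± 0.0759 and 0.597% ± 0.0705 for Nd1 and 0.435% ± 0.0642 and 0.450% ± 0.0569 for Nd5, control before SCM (SD, n = 5 each).

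The complex IV genes likewise overlapped between control and SCM rats. Co1, the subunit that holds the oxygen-reducing site, took 10.3, 10.6, 10.4, 12.2 and 9.84% of the library in the control LV and 9.80, 11.99, 11.3, 10.6 and 10.7% in the SCM LV. In the brain it took 2.24, 2.47, 2.60, 2.51 and 2.02% in control rats and 2.33, 3.44, 2.50, 2.53 and 2.46% in SCM rats, where M2 stood apart. The groups overlapped in both tissues, with differences of 1.10-fold in the LV (0.923 to 1.31, adjusted p = 0.512, edgeR) and 1.15-fold in the brain (0.942 to 1.40, adjusted p = 0.498, edgeR). Co2, which takes electrons from cytochrome c, took 2.67, 2.80, 2.59, 2.45 and 2.69% in the control LV and 2.52, 3.01, 2.36, 1.997 and 2.54% in the SCM LV. The SCM rats were spread more widely, with M3 and M4 below every control rat and M2 above every control rat. Co3, a structural core subunit, took 3.51, 3.25, 3.14, 4.35 and 2.93% in the control LV and 2.95, 3.41, 3.46, 3.63 and 2.80% in the SCM LV. For Co2 and Co3 the mean share of the library was lower in the SCM LV (2.48% ± 0.364 and 3.25% ± 0.356) than in the control LV (2.64% ± 0.131 and 3.44% ± 0.554, SD, n = 5 each). With TMM the estimates lay just above 1, at 1.02-fold (0.850 to 1.23) and 1.02-fold (0.823 to 1.26), so the direction of these small differences rested on the scaling. In the brain Co2 was 1.16-fold (0.950 to 1.42, adjusted p = 0.468, edgeR) and Co3 1.08-fold (0.896 to 1.31, adjusted p = 0.699, edgeR).

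Cytb took 2.91, 2.84, 2.74, 3.42 and 2.57% in the control LV and 2.98, 3.23, 3.00, 3.16 and 2.72% in the SCM LV. Atp6 took 2.20, 2.20, 2.20, 2.70 and 2.18% in the control LV and 2.22, 2.43, 2.42, 2.61 and 2.24% in the SCM LV. In both genes C4 was the highest of all 10 rats, and for Atp6 the other 4 control rats lay below all 5 SCM rats. The differences were 1.13-fold for Cytb (0.941 to 1.35, adjusted p = 0.420, edgeR) and 1.12-fold for Atp6 (0.950 to 1.32, adjusted p = 0.396, edgeR). In the brain they were 1.14-fold (0.918 to 1.41, adjusted p = 0.566, edgeR) and 1.18-fold (0.966 to 1.43, adjusted p = 0.426, edgeR). The upper ends of the intervals reach at most 1.54-fold in the LV and, apart from Nd4, at most 1.43-fold in the brain.

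**Figure D4:**
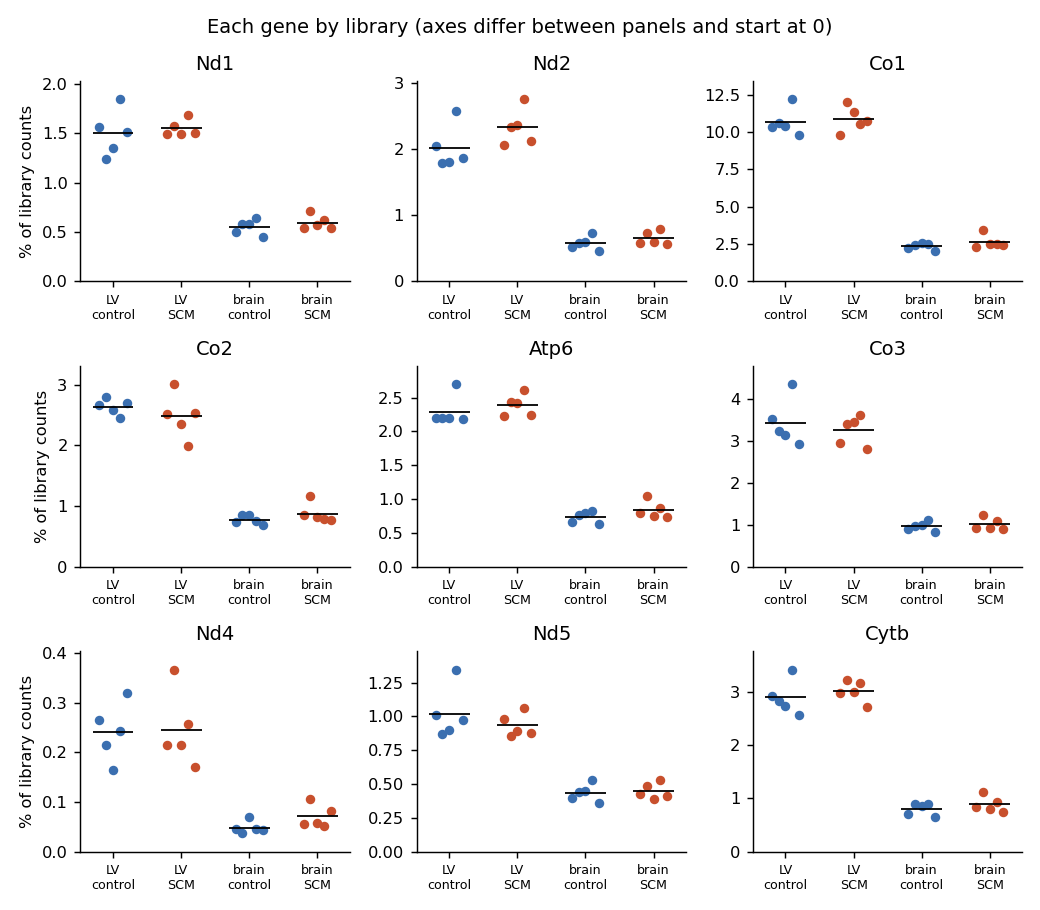
Percent of library counts of each gene in the 5 libraries of each group (points; lines, group means), with control rats in blue and SCM rats in red. In every panel the LV libraries lie above the brain libraries, and control and SCM points overlap.

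The effect of stress on these genes was not shown to differ between the LV and the brain. In a fit of the 20 libraries that blocked on rat, the interaction of tissue and stress was tested: 0 of 9 had an adjusted p-value under 0.05 in edgeR, where 0.754% of the 16720 genes tested did, and 0 of 9 an unadjusted one, against 13.9% of all genes. DESeq2 and limma-voom also called 0 of 9, and 3.33% and 0.981% of all genes. The estimates ran from -0.48 for Nd4 (95% interval -1.15 to 0.19) to 0.09 for Nd2 (-0.23 to 0.41) on the log2 scale, where a negative value is a less positive effect in the LV. That of Nd4 was -0.75 without C3 (unadjusted p = 0.00643, adjusted p = 0.226, edgeR) and -0.29 without M5. The median was -0.08, close to the -0.05 of all genes tested. Its sign rested on M2: without that rat the median was 0.02 and 3 of 9 estimates were negative, against 8 of 9 with all rats. Leaving out other rats gave medians from -0.14 (without C3) to -0.04 (without C1), and RLE normalization gave -0.04 with 6 of 9 negative.

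The make-up of the 9-gene sum differed between the tissues, and the differences had the same sign in every rat for 5 of the genes. Co1 took 40.0% ± 1.10 of the sum in the control LV and 32.7% ± 0.889 in the control brain (SD, n = 5 each), and the share was higher in the LV in 10 of 10 rats. Nd5 took 3.79% ± 0.365 and 5.99% ± 0.357 in the same order, lower in the LV in 10 of 10 rats. Nd1 took 5.61% ± 0.531 and 7.57% ± 0.263, Atp6 8.58% ± 0.191 and 10.1% ± 0.208, and Co2 9.97% ± 1.22 and 10.7% ± 0.774, each lower in the LV in 10 of 10 rats. By complex, the 3 complex IV genes made up 62.8% ± 1.42 of the sum in the control LV and 56.7% ± 1.37 in the control brain. The 4 complex I genes made up 17.8% ± 1.45 and 22.2% ± 1.16 (SD, n = 5 each). Shares of a sum are tied to each other, so a rise of Co1 lowers the rest, and they were described and not tested.

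Rats C4 and M4 lay apart from the other 8 in the share of Co2 in both tissues and of Nd2, Nd5 and Co1 in the brain, a pattern singled out after the values were seen. Co2 took 7.87% of the sum in the LV of C4 and 7.204% in that of M4, below the 8.57 to 10.8% of the other 8 rats. In the brain it took 9.36% and 9.61%, below the 10.5 to 11.6% of the others. Both tissues of both rats thus lay at the low end for Co2. In the brain, Nd5 took 6.62% in C4 and 6.46% in M4, above the 4.84 to 5.90% of the others, and Nd2 took 9.07% and 9.60%, above the 7.27 to 8.10% of the others. In the LV, Nd2 took 8.28% in C4 and 9.92% in M4, where the others ran from 6.92 to 8.58%, so that only M4 lay apart. LV Nd5 took 4.32% in C4, above the others, and 3.83% in M4, within their 2.93 to 3.91%. Co1 was lowest in the brain of these rats, at 31.2% and 30.8%, against 31.7 to 34.3%. In the LV it took 39.2% in C4, within the 38.9 to 41.7% of the others, and 38.1% in M4, below them. C4 is a control rat and M4 an SCM rat, and the labels give them nothing in common but the number. Over all genes tested, their deviations from the group means had a correlation of 0.118 in the LV and 0.131 in the brain, the highest of the 5 same-numbered pairs in each tissue.

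**Figure D5:**
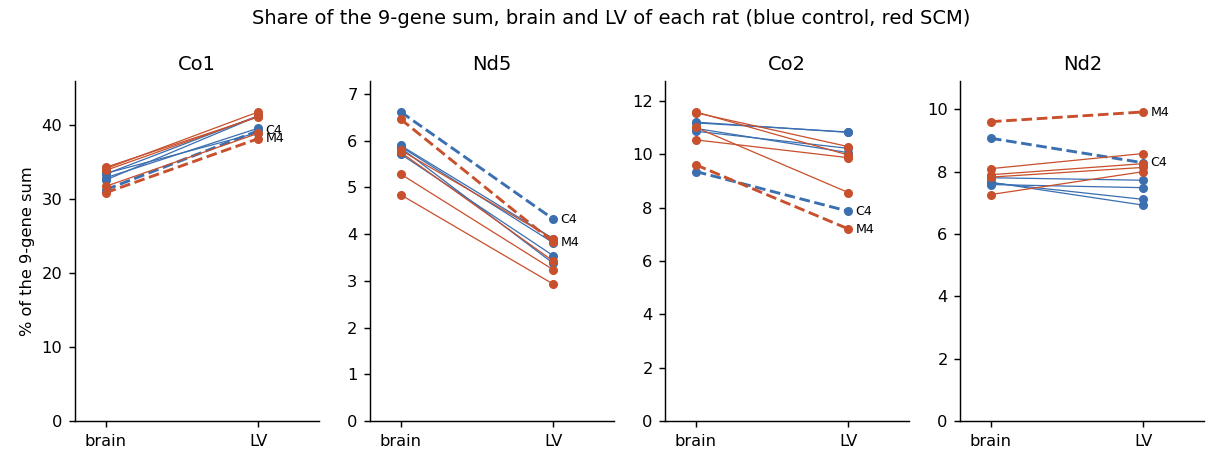
Percent of the 9-gene sum taken by Co1, Nd5, Co2 and Nd2 in the brain and the LV of each rat, joined by a line (control rats blue, SCM rats red; C4 and M4 thick and dashed). Co1 rises and Nd5 falls from brain to LV in all 10 rats, C4 and M4 lie lowest for Co2 in both tissues, and Nd2 is lower in the LV in the 5 control rats and higher in the 5 SCM rats.

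Nd2 was the one gene whose tissue difference in this make-up had 1 sign in every control rat and the other in every SCM rat. Its share of the sum in the LV minus that in the brain ran from -0.788 to -0.0801 percentage points in the 5 control rats and from 0.312 to 0.734 points in the 5 SCM rats. In the LV it took 7.51% ± 0.536 of the sum in control rats and 8.58% ± 0.779 in SCM rats, and in the brain 7.95% ± 0.630 and 8.14% ± 0.875 (SD, n = 5 each). The difference was not tested on this scale, and on that of the whole library the interaction of Nd2 had an adjusted p of 0.840 (edgeR).

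The 9 genes kept their proportions to differing degrees from library to library, and Nd4 varied most. The log2 ratio of Atp6 to the sum of the other 8 genes had an SD of 0.06 over the 10 LV libraries and 0.05 over the 10 brain libraries. For Cytb the SD was 0.06 in both, and for Co1 it was 0.08 in both. That of Nd4 was 0.34 in the LV and 0.38 in the brain, and its ratio to the others spanned 1.98-fold in the LV and 2.33-fold in the brain. Co2 came next in the LV, with an SD of 0.22 and a span of 1.57-fold, followed by Nd5 at 0.17, Nd2 at 0.16, and Co3 and Nd1 at 0.12 each. In the brain Nd2 and Nd5 had an SD of 0.14, Co2 of 0.12, Co3 of 0.07 and Nd1 of 0.05. Nd4 was also the most variable of the 9 within each group, with an SD of log2 normalized counts from 0.35 to 0.48. The median SD over the 9 genes was 0.26 in the control LV and 0.13 in the SCM LV, beside 0.25 and 0.24 over all genes tested. In the brain it was 0.24 in control rats and 0.25 in SCM rats, beside 0.17 and 0.23 over all genes.

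Of the features outside the list, ENSRNOG00000021206 in the LV and ENSRNOG00000000549 in the brain were most like the summed 9 genes across libraries. Their log2 normalized counts had a Pearson correlation with the sum of 0.94 over 10 LV libraries and 0.97 over 10 brain libraries, the highest of 13945 and 15993 features compared. As the highest of so many over so few libraries, which share rats and scaling, these values are a description only.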

How the data were processed

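The table that the authors deposited holds raw counts per feature for 20 libraries, without normalization and without pooling replicates. The submitters' processing notes name HISAT2, StringTie, SAMtools and the build mRatBN7.2. The role of each tool, the annotation, the strandedness, and whether poly(A) RNA was selected are not given in the sources used here. The library kit was NEBNext Ultra.

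Counts were fitted over the whole table with edgeR 4.0.16 in R 4.3.3: filterByExpr (minimum count 10, minimum total 15), TMM, the quasi-likelihood test and Benjamini-Hochberg adjustment over all genes tested. Stress was tested in the LV and in the brain separately. The LV against brain comparison and the interaction had the rat as a block, since the labels name the rat of each library. Standard errors were the log2 fold change divided by the square root of F, and 95% intervals used the fit's degrees of freedom. Log2 normalized counts used a prior count of 0.5. Alternatives used DESeq2 1.42.0 and limma 3.58.1. The fits were tested on simulated data.

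The members and lists were chosen with earlier results of these data known. The rule for named genes was all 9 members, further mitochondrial features, 2 per list and direction, and the features most like the sum (at most 2 identifiers where unnamed). Identifiers were not linked to symbols or gene positions here, so marker and nuclear gene lists, lengths and sequences were not used. Same-numbered control and SCM rats are different animals, and correlations of their deviations ran from -0.176 to 0.131, so numbers were not taken as pairs. Over 40 pairs of replicate libraries, mean squared differences were at least 11.6 times the sampling variance, so no library looked deposited more than once. The labels do not say more of how rats were kept, so p-values for stress within a tissue measure the spread between these rats. With the rat as a block, they measure how far the LV against brain differences within rats vary between these rats.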

Additional observations from a re-analysis of the deposited data

Results flagged for a closer look

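A library stood far from its group in 11 of the 76 sets of 5 values that were examined, and chance alone gives about 1 in 20, or 3.8; the groups share libraries and are not independent. Rat C4 gave 6 of these. In its LV the 9 genes took 31.13% of the counts, against 24.89 to 26.49% in the other control rats, Atp6 took 2.696% of the library, against 2.181 to 2.204%, and Co2 took 7.867% of the 9-gene sum, against 10.07 to 10.84%. In its brain Nd2 took 9.072% of the sum, against 7.587 to 7.805%, Co2 took 9.359%, against 10.87 to 11.21%, and Nd5 took 6.618%, against 5.715 to 5.899%. The brain of M2 had 3.442% of the library in Co1, against 2.327 to 2.525% in the other SCM rats, and 1.162% in Co2, against 0.7605 to 0.8516%. Nd4 took 0.06977% of the library in the brain of C3, against 0.03698 to 0.04608%. Cytb took 10.33% of the sum in the LV of C5, against 10.81 to 10.99%, and Co3 took 13.37% of the sum in the brain of M4, against 12.32 to 12.59%. No cause was tested for these libraries.

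The share of Nd2 in the 9-gene sum differed between LV and brain by -0.4478 percentage points on average in control rats and by 0.4402 in SCM rats, with every rat of a group on the same side of 0. This difference between the groups was not tested.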

How the results depend on the processing

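The number of genes past the threshold stayed at 0 of 9 in the brain and for the interaction and at 9 of 9 (Nd4, kept by its LV rank, included) for LV against brain in every alternative run: RLE and upper-quartile normalization, library size and TMM without the 9 genes, DESeq2, limma-voom, no filter, a minimum of 10 counts per library, the replicate block or its removal, 1 fit of all libraries (for the stress comparisons) and leaving out each rat. In the LV it was 0 in each of these except that leaving out 1 rat gave from 0 to 1, the 1 being Nd2 without C4. With the replicate block it was 0 in the LV and 0 in the brain. The LV excess over brain in control rats was 19.5 percentage points of the library, and 28.8 when the 9 genes were counted per 100 other counts, a change of unit by construction. The SCM minus control differences of the summed share moved by less than 1 SD (pooled over both groups) from their values with all rats. Leaving out 1 rat, they ran from -0.18 to 1.45 points in the LV, a change of sign, and from 0.285 to 0.993 points in the brain. Leaving out Nd4, a choice made after seeing the data, moved none of the share differences by 1 SD. All 171 alternatives for single genes in the brain kept direction and side of the threshold. So did every alternative for LV against brain of the 8 genes other than Nd4, which was kept by its LV rank and is not counted.

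Signs changed in 11 of 171 alternatives in the LV and in 15 of 162 for the interaction, with adjusted p-values of 0.469 or more (edgeR, DESeq2 and limma). In the LV, Nd5 was at 0.0038 with limma-voom and 0.0039 with the replicate block on the log2 scale. Leaving out 1 rat moved Nd5 from -0.075 to 0.13, Co2 from -0.064 to 0.11, Co3 from -0.037 to 0.16 and Nd4 from -0.075 to 0.25. For the interaction, Nd1 was at 0.024 with RLE, 0.024 with DESeq2 and 0.0024 with the 10-count minimum, and Cytb at 0.0059 with RLE and 0.0058 with DESeq2. Leaving out 1 rat moved Nd1 from -0.11 to 0.085, Cytb from -0.093 to 0.072, Co1 from -0.13 to 0.025, Atp6 from -0.14 to 0.035 and Co3 from -0.15 to 0.00069. The cause of these changes was not tested. Over all genes, edgeR called 727 in the LV, 28 in the brain and 126 for the interaction. DESeq2 called 1644, 403 and 556, and leaving out 1 rat gave 287 to 997, 4 to 112 and 10 to 217. The replicate block gave 314 in the LV and 15 in the brain, 1 fit of all libraries 1789 in the LV, and for the interaction the 10-count minimum gave 198 and no block 285. A share without other mitochondrial features was not run, since none was identified, nor were gene lists.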
